A study of Cucumis melo with 12 samples.

Results

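The genes described here are those whose messenger RNA level stayed nearly the same in every leaf library of a melon (Cucumis melo) chilling experiment, whatever the variety or the time at low temperature. Levels were FPKM, which divide the fragments of a gene by its length and by the size of the library. Each library's values were first divided by its median-ratio factor, the typical ratio of its genes to their own average over all libraries. A gene was taken as steady when its mean scaled FPKM was 20 or more and below 1000 and its coefficient of variation (CV, the SD divided by the mean) over the 12 libraries was 0.10 or less. By this rule 71 genes were steady, of 5382 genes in the level window (1.32%) and of 21691 genes in all. The values that chose them are those reported below, so levels, spreads and differences among them are descriptions and test nothing.

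The experiment compared leaves of 162, which the labels call tolerant of chilling, and of 13-5A, which they call sensitive, sampled at 0 h and at 12 h of chilling at 4 °C. Each of the 4 groups (162 at 0 h, 162 at 12 h, 13-5A at 0 h, 13-5A at 12 h) had 3 libraries. The treatment label is the same at 0 h and at 12 h, and 0 h is taken to mean the onset of chilling. No group was held without chilling until 12 h, so low temperature and elapsed time cannot be told apart, and the labels do not say whether replicate libraries stem from different plants. The deposited identifiers carry no gene names, and 0 of them were found in the reference table of melon genes, so the roles of the genes, the leaf markers and lists such as actins, ubiquitins or proteasome subunits could not be looked up.

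Genes needed by every cell at all times, for protein synthesis, protein turnover, transport or the cytoskeleton, are often called housekeeping genes. Steady genes of this kind serve as internal references when the level of another gene is measured by quantitative PCR, since a change in the ratio to the reference is then read as a change of the gene of interest. In plants exposed to cold much of the leaf transcriptome is remodelled, and a reference for such work has to be checked in the tissue and treatment where it is used. RNA sequencing gives relative levels only, so a gene is steady only with respect to the scaling that puts the libraries on one footing.

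Libraries held between 41299369 and 45355323 counted reads, as recovered from the FPKM values, and those of one group correlated at 0.95 to 0.987. The mean number of reads per library of the steady genes ran from 822 to 20720, with a median of 3029. Counting error alone would give these genes a median CV of 0.0182, against a measured median of 0.0855. It made up a median of 4.84% of their variance over libraries, and 36.2% at most. For all genes of the level window that median was 0.309%. These figures cover counting error only.

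The steady genes lay at the edge of a broad distribution of spread. Their CV ran from 0.0504 to 0.0994, while the median CV of all genes in the level window was 0.34 and its quartiles were 0.232 and 0.505. Only 3 genes of the window were at 0.06 or less and 27 at 0.08 or less, whereas 175 were at 0.12 or less and 961, or 17.9%, at 0.2 or less. The highest library exceeded the lowest by a factor of 1.32 in the median steady gene and 1.49 at most. In the median gene of the window the same factor was 2.91.

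**Figure D1:**
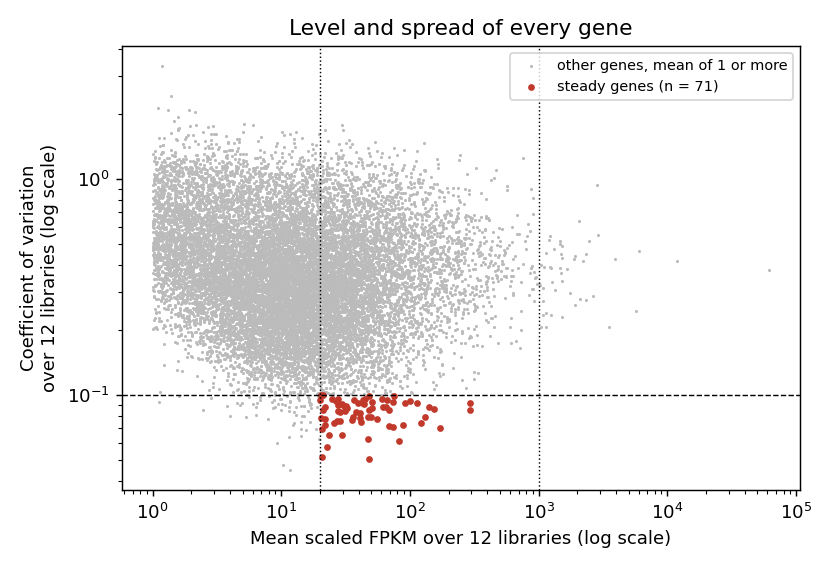
Mean scaled FPKM over the 12 libraries (x axis, log scale) against the CV over the same libraries (y axis, log scale) for every gene with a mean of 1 or more, with the 71 steady genes in red. The dashed line is the CV limit of 0.10 and the dotted lines are the level limits of 20 and 1000; the red points end near 292 scaled FPKM, well short of the upper limit.

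The rule itself confines the steady genes to means of 20 or more and below 1000 scaled FPKM. Their median level was 42.9 scaled FPKM (quartiles 27.8 and 65.7), close to the 42.5 of the whole window. Between 20 and 50 scaled FPKM 47 of 3149 genes (1.49%) were steady, between 50 and 200 it was 22 of 1833 (1.2%), and between 200 and 1000 it was 2 of 400 (0.5%). Above the window none of the 48 genes at 1000 or more had a CV of 0.10 or less, the lowest being 0.206. Below it 72 of 10142 genes with a mean from 1 to 20 did.

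Gene length, which the rule did not use, was recovered from the steps of the FPKM values. Steady genes had a median length of 1613 bases (quartiles 1160 and 2107) and the window 1574 (1119 and 2121). With the window cut into 4 length classes of equal size, from short to long, 0.818%, 1.63%, 1.56% and 1.26% of the genes were steady. The shortest class, of 1119 bases or less, held 11 of the 71 and also had the highest median CV of all its genes, 0.385 against 0.317 to 0.333 in the other classes. The longest steady gene was MELO3C015907.2 with 4071 bases and a mean of 32.4 ± 2.81 scaled FPKM (SD, n = 12 libraries). The shortest was MELO3C000452.2 with 270 bases.

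Of all genes in the window, MELO3C005733.2 had the lowest CV, 0.0504. In 162 it stood at 44.2, 53.5 and 49.1 scaled FPKM at 0 h and at 46.7, 49.7 and 46.5 at 12 h. In 13-5A it stood at 47.9, 47.5 and 50.9 at 0 h and at 49.3, 49.5 and 46.5 at 12 h. All 4 groups overlapped, and the lowest and the highest library were both 162 at 0 h. In this gene 95.8% of the variance of log2 levels lay among libraries of one group.

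MELO3C007998.2 was nearly as steady at a lower level, with a mean of 20.6 ± 1.06 scaled FPKM (SD, n = 12) and a CV of 0.0514. Its libraries of 162 read 19.9, 19.4 and 19.8 at 0 h and 20.5, 21.5 and 21.0 at 12 h. Those of 13-5A read 21.1, 21.1 and 18.7 at 0 h and 21.0, 21.0 and 22.6 at 12 h. In 162 the 12 h libraries were all above the 0 h libraries by a small step, and in 13-5A the times overlapped.

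At middle levels the lowest spreads belonged to MELO3C007764.2 and MELO3C002464.2. MELO3C007764.2 had 78.7, 80.9 and 79.3 scaled FPKM in 162 at 0 h, 81.0, 77.6 and 89.8 in 162 at 12 h, 86.0, 88.9 and 84.0 in 13-5A at 0 h, and 74.6, 77.7 and 88.2 in 13-5A at 12 h (CV 0.0613). MELO3C002464.2 had 160.0, 171 and 199 in 162 at 0 h, 155, 161 and 179 in 162 at 12 h, 177, 175 and 165 in 13-5A at 0 h, and 183, 165 and 173 in 13-5A at 12 h (CV 0.07). For both genes the times overlapped in both varieties.

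The 2 most abundant steady genes were MELO3C018726.2 and MELO3C000452.2, with means of 292 ± 25.01 and 292 ± 26.7 scaled FPKM (SD, n = 12). Their spreads were of different kinds. MELO3C018726.2 read 308, 297 and 298 in 162 at 0 h and 271, 282 and 253 at 12 h, and 343, 324 and 298 in 13-5A at 0 h and 268, 291 and 277 at 12 h. Every 0 h library was above every 12 h library, and 25.8% of its variance was within groups. MELO3C000452.2 read 343, 241 and 270 in 162 at 0 h and 312, 255 and 292 at 12 h, and between 290.0 and 310.1 in all 6 libraries of 13-5A. Its spread lay among the libraries of 162, and 91.1% of its variance was within groups.

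**Figure D2:**
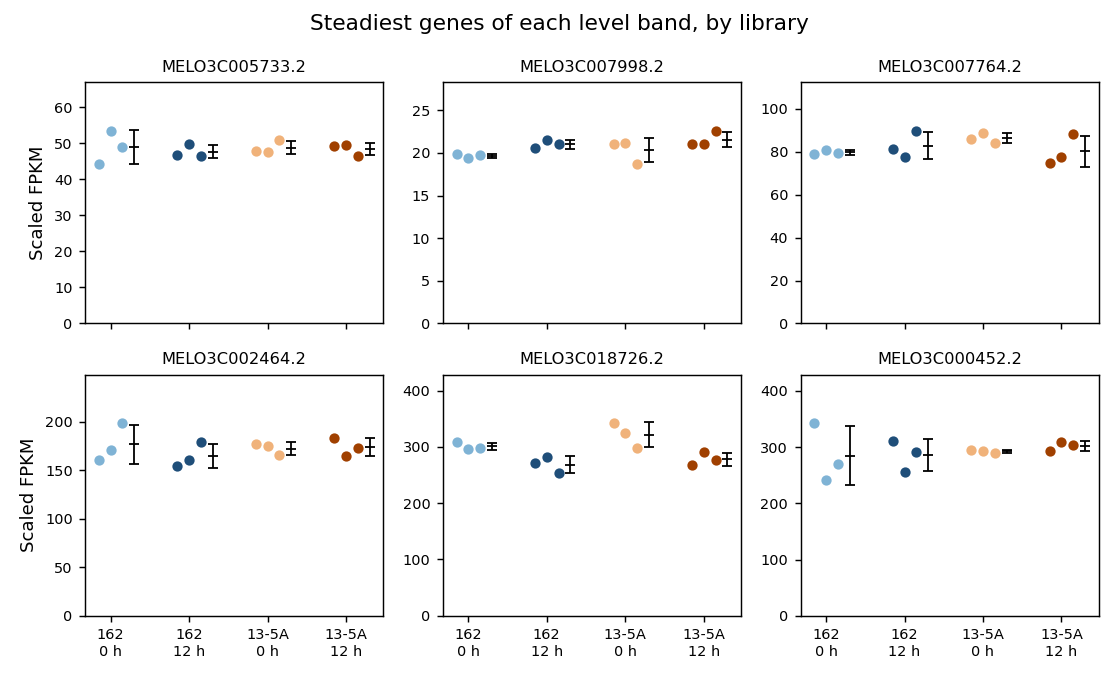
Scaled FPKM (y axis, from 0) of the 2 steadiest genes in each level band, 20 to 50, 50 to 200 and 200 to 1000, by variety and time (x axis); points are the 3 libraries of a group and black marks their mean ± SD. MELO3C018726.2 is lower at 12 h than at 0 h in both varieties, and MELO3C000452.2 is scattered from 241 to 343 in 162 at 0 h.

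The edges of the set were set by the limits rather than by a gap. MELO3C009890.2 and MELO3C026439.2 were nearest inside the CV limit, at 0.0994 and 0.0993. MELO3C030305.2 and MELO3C002328.2 were nearest outside it, both at 0.1002. At the lower level limit MELO3C012462.2 was nearest inside with a mean of 20.1, and MELO3C011827.2 nearest outside with 19.7 and a CV of 0.0627. Near the upper limit there was no candidate on either side, since the highest steady gene stood at 292 scaled FPKM.

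Within the set, a median of 56.3% of the variance of log2 levels was among libraries of one group, against 18.8% in the window. For each gene the variance of log2 scaled FPKM was split into variety, time, their interaction and the rest within groups. The within-group share was the largest of the 4 in 53 of the 71 steady genes, variety in 8, time in 7 and the interaction in 3. In the level window it was the largest in 21.0% of 5377 genes, and time in 49.1%. The within-group part has 8 degrees of freedom, more than any other part, and the rule limits differences between groups. These features favour it as the largest share in steady genes, so nothing is read from the 53. The rule limits total spread, of which the spread within groups is a part, so a low within-group CV is built in. The median pooled within-group CV was 0.074 in steady genes and 0.163 in the window. The CV of the 4 group means had medians of 0.059 and 0.326. Means of 3 libraries vary less than single libraries, so the CV of group means and the within-group CV are not on one scale. Their medians in steady genes do not show whether the groups differed beyond replicates. In the window the median CV of group means, 0.326, was close to the median of the whole CV, 0.34.

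Both extremes of this split occurred, in genes chosen after their values were seen. MELO3C024688.2 had the smallest pooled within-group CV of the set, 0.0168. Its 3 libraries read 43.1, 41.6 and 41.3 scaled FPKM in 162 at 0 h, 44.4, 43.9 and 45.0 in 162 at 12 h, 36.4, 36.4 and 35.5 in 13-5A at 0 h, and 41.5, 42.4 and 41.2 in 13-5A at 12 h. The 13-5A libraries at 0 h stood below all others, and 3.09% of its variance was within groups. MELO3C012522.2 had the largest pooled within-group CV, 0.106. Its group means were 99.3 ± 13.3 and 98.0 ± 12.7 in 162 at 0 h and 12 h, and 99.7 ± 4.11 and 104 ± 9.72 in 13-5A (SD, n = 3). These means differed by less than the spread between replicates.

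Replicates of 13-5A were closer to each other than those of 162, for the steady genes as for the rest. The median CV over 3 libraries was 0.0763 in 162 at 0 h and 0.0665 at 12 h, against 0.0477 and 0.0481 in 13-5A. For the window the 4 medians were 0.185 and 0.156 against 0.108 and 0.119. Library by library, the median steady gene deviated from its own mean by 4.24% to 8.82%. The largest deviation was in replicate 1 of 162 at 0 h, which was also the library farthest from the mean in 11 of the 71 genes. It held the highest value of 10 genes and the lowest value of 10 others. Its total of 43133264 reads was within the range of the other libraries.

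**Figure D3:**
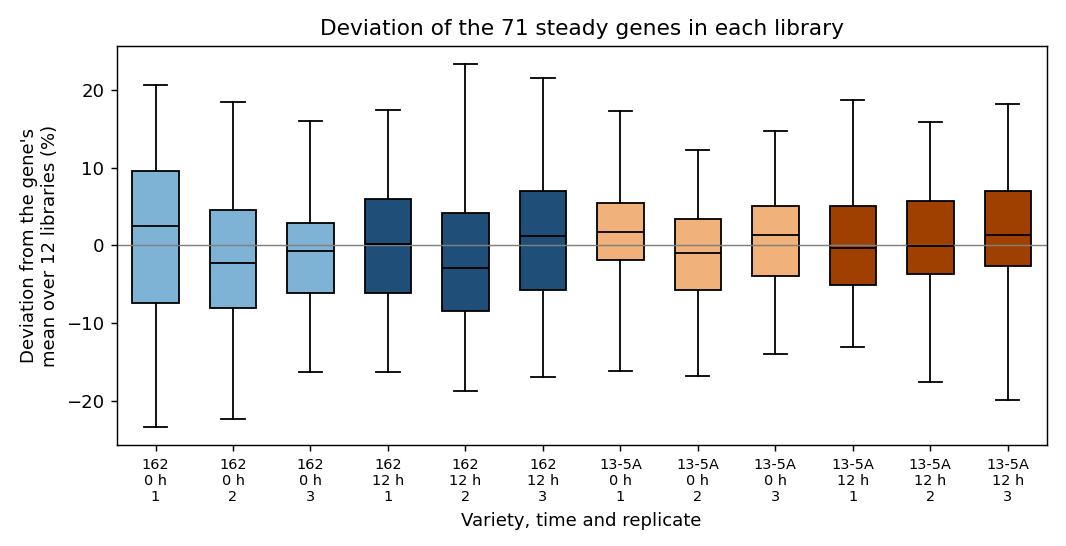
Deviation of each of the 71 steady genes from its own mean over the 12 libraries, in percent (y axis), by library (x axis: variety, time, replicate); boxes span the quartiles with the median as a line, and whiskers reach the lowest and highest gene. Deviations reach -23.4% in replicate 1 of 162 at 0 h and 23.3% in replicate 2 of 162 at 12 h, and boxes are narrowest in 13-5A at 0 h.

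The farthest single values belonged to MELO3C026439.2 and MELO3C005621.2. MELO3C026439.2 stood at 16.1 scaled FPKM in replicate 1 of 162 at 0 h, -23.4% from its mean of 21.0. MELO3C005621.2 stood at 74.7 in replicate 2 of 162 at 12 h, 23.3% above its mean of 60.6. In both cases the value came from a single replicate of its group.

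Between times, the steady genes split evenly. A CV of 0.10 over 12 libraries allows the means of 2 groups of 3 to differ by a factor of 1.31 at most, and those of 6 against 6 by 1.21, so a 2-fold change cannot occur in the set. Averaged over the varieties, 37 genes had a higher and 34 a lower mean log2 level at 12 h than at 0 h. Differences ran from -0.19 to 0.19 on the log2 scale, and their median size was 0.066, against 0.53 in the window. The largest positive differences were those of MELO3C009890.2 and MELO3C020961.2. MELO3C020961.2 had 66.7 ± 1.5 and 75.0 ± 4.01 scaled FPKM in 162 at 0 h and 12 h, and 74.7 ± 3.47 and 85.1 ± 4.8 in 13-5A (SD, n = 3). MELO3C009890.2 had 18.7 ± 0.412 and 21.1 ± 2.6 in 162, and 19.1 ± 1.15 and 22.2 ± 1.43 in 13-5A. On the negative side, after MELO3C018726.2, stood MELO3C006711.2, with 119 ± 5.8 and 113 ± 6.91 in 162 and 121 ± 7.69 and 99.2 ± 4.77 in 13-5A. Its times overlapped in 162 and were separate in 13-5A.

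MELO3C018726.2 was the single steady gene whose 6 libraries of one time were all beyond the 6 of the other, at a lower level at 12 h. In the window 8.47% of genes were lower at 12 h without overlap and 19.9% were higher. Within one variety, with 3 libraries against 3, 7 steady genes were higher and 5 lower at 12 h without overlap in 162, and 11 and 7 in 13-5A. The corresponding shares of the window were 32.0% and 21.4% in 162 and 39.9% and 28.2% in 13-5A. The rule used these libraries, and nothing is read from the low counts.

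Between varieties, averaged over the times, 25 steady genes were higher in 162 and 46 lower, with log2 differences from -0.19 to 0.19 and a median of -0.03. The window had a median of -0.08. MELO3C006107.2 was the single gene with all 6 libraries of 162 above all 6 of 13-5A, where 5.11% of the window was so placed. Its levels were 49.6 ± 3.3 and 49.98 ± 1.38 scaled FPKM in 162 at 0 h and 12 h, and 45.5 ± 1.8 and 43.1 ± 3.26 in 13-5A (SD, n = 3). The lowest library of 162 was at 47.3 and the highest of 13-5A at 47.2, so the gap was far smaller than the spread within groups. No steady gene had its 162 libraries all below, against 6.09% of the window.

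Larger on average, the difference for MELO3C019016.2 still left its varieties overlapping, with 25.9 ± 2.57 and 26.8 ± 1.43 in 162 and 23.4 ± 2.4 and 22.8 ± 0.443 in 13-5A. In the other direction MELO3C011798.2 had 41.6 ± 1.31 and 39.7 ± 2.27 in 162 and 45.3 ± 4.38 and 47.4 ± 2.55 in 13-5A. MELO3C018586.2 had 27.7 ± 2.06 and 27.7 ± 0.808 in 162 and 31.4 ± 2.01 and 31.5 ± 3.03 in 13-5A.

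The log2 difference of 12 h from 0 h had opposite signs in the varieties in 30 of the 71 steady genes, within the narrow band that the rule allows. The share over the window was not counted, so nothing is read from this count. The largest such contrasts are given here. MELO3C015227.2 had 24.6 ± 1.67 and 28.0 ± 1.92 scaled FPKM in 162 at 0 h and 12 h, and 28.4 ± 2.01 and 24.9 ± 2.29 in 13-5A (SD, n = 3). MELO3C026439.2 had 18.6 ± 2.54 and 23.1 ± 1.26 in 162, and 21.4 ± 0.472 and 20.8 ± 0.355 in 13-5A. With the signs exchanged, MELO3C006316.2 had 157 ± 10.5 and 144 ± 7.11 in 162 and 143 ± 6.67 and 169 ± 7.07 in 13-5A. MELO3C025998.2 had 28.8 ± 3.27 and 26.5 ± 1.4 in 162 and 26.0 ± 1.54 and 29.8 ± 0.39 in 13-5A. The difference between the varieties' changes, on the log2 scale, was 0.38, 0.36, -0.37 and -0.31 for these genes. Over the set it was positive in 34 genes and negative in 37.

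None of these differences was called by limma, fitted to log2(scaled FPKM + 1) of all 15572 genes with a mean of 1 or more, at a Benjamini-Hochberg adjusted p under 0.05 of any size. The count was 0 of 71 in each of the 5 comparisons. The rule allows 2 group means to differ by a factor of 1.31 at most. Whether limma would call a change within that limit, in genes with the spread of the steady ones, was not tested. The 0 calls do not show that the groups were equal. Among all tested genes 48.2% were called for 12 h against 0 h in 162 and 50.5% in 13-5A, 3.8% for the interaction, and 37.2% and 21.6% for 162 against 13-5A at 0 h and at 12 h. The rule used the same libraries, so the contrast with these shares is built in. At an unadjusted p under 0.05 limma gave 2, 1, 1, 0 and 0 steady genes in that order. The share of all tested genes at that unadjusted limit was not counted, so nothing is read from these numbers. Fitted to the recovered reads, limma voom called 0 steady genes in each comparison after adjustment. The nearest to a call was MELO3C026439.2 for time in 162, with a log2 difference of 0.30 (SE 0.12, limma adjusted p = 0.0512). Next came MELO3C006711.2 for time in 13-5A (-0.28, SE 0.12, limma adjusted p = 0.0692). The first of these was called without a filter on low values, with a minimum mean of 5 and without replicate 2 of 162 at 0 h, and its adjusted p ran from 0.0163 to 0.237 over 19 alternatives. The second was called without a filter only, with a range of 0.035 to 0.208.

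By construction limma draws each gene's spread toward that of genes at a similar level. The limma SE of a difference between 2 groups had a median of 0.121 in the steady genes, whereas their own libraries gave a median of 0.085. The limma SE was the larger one in 71 of 71. For MELO3C024688.2, whose libraries of 162 and 13-5A did not overlap at 0 h, limma gave an adjusted p = 0.118 for the varieties at 0 h.

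Steadiness depended on how the libraries were scaled. The median-ratio factors, by which deposited FPKM were divided, were 1.13 ± 0.0322 in 162 at 0 h, 1.04 ± 0.0113 in 162 at 12 h, 0.909 ± 0.0247 in 13-5A at 0 h and 0.963 ± 0.0237 in 13-5A at 12 h (SD, n = 3). In deposited FPKM all 71 steady genes had a higher mean in 162 than in 13-5A at 0 h, by a median factor of 1.22 (range 1.05 to 1.45). After scaling the median factor was 0.985 (0.841 to 1.16), with 31 of the 71 above 1. At 12 h the median factors were 1.06 before and 0.98 after scaling. The rule limits differences after scaling, so the ratios before scaling largely follow the median-ratio factors. The share of all genes with a higher deposited mean in 162 at 0 h is not given here. Nothing is therefore read from the count of 71. Fitted to deposited FPKM, limma called 24 of the 71 for the varieties at 0 h (41.8% of all genes tested), each higher in 162, by 0.34 to 0.52 on the log2 scale.

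The geometric mean of the 71 genes shows the same shift. In deposited FPKM it was 50.6 ± 0.777 in 162 at 0 h, 46.9 ± 0.894 in 162 at 12 h, 41.3 ± 1.23 in 13-5A at 0 h and 43.9 ± 0.903 in 13-5A at 12 h (SD, n = 3). After scaling it was 44.8 ± 0.635, 45.0 ± 0.519, 45.5 ± 0.691 and 45.6 ± 0.39 in the same order. Over the 12 libraries its CV went from 8.1% to 1.31%. This follows from the choice of genes on the scaled values. Of all deposited FPKM the 71 genes took 0.687% ± 0.0335 in 162 at 0 h, 0.65% ± 0.0132 at 12 h, and 0.576% ± 0.0196 and 0.62% ± 0.0179 in 13-5A.

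**Figure D4:**
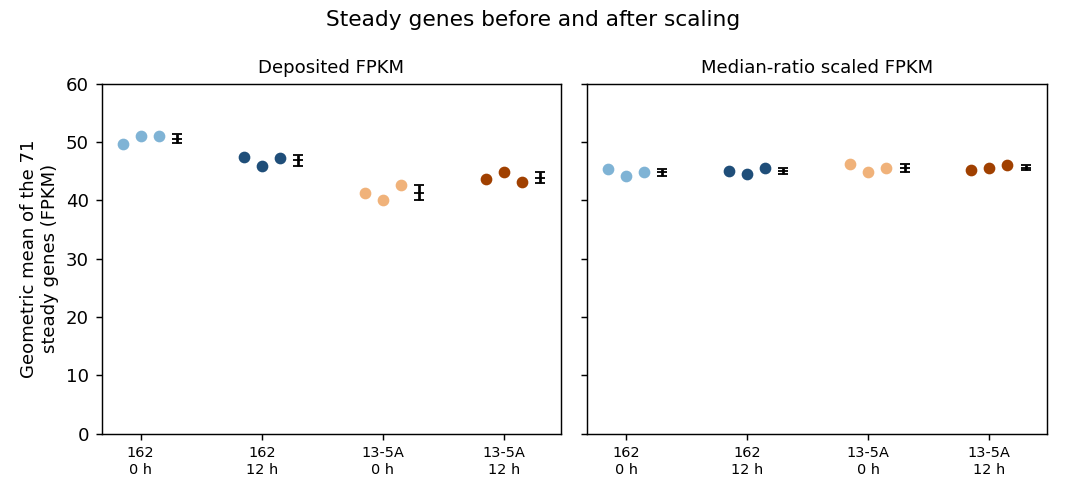
Geometric mean of the 71 steady genes in each library (y axis, FPKM, from 0) by variety and time (x axis), in deposited FPKM on the left and after median-ratio scaling on the right; points are libraries and black marks mean ± SD of 3. Before scaling the groups run from 41.3 in 13-5A at 0 h to 50.6 in 162 at 0 h, and after scaling all lie between 44.8 and 45.6.

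The same rule applied to values scaled in other ways chose other genes. On deposited FPKM it found 63 genes, of which 20 were among the 71 (31.7% of the one list and 28.2% of the other). With every library brought to one total (TPM) it found 61, sharing 21. Scaling by the upper quartile gave 86, sharing 35, and a median-ratio factor taken over genes with a mean of 20 or more gave 87, sharing 36. In all, 182 genes were steady under at least 1 of the 5 scalings and 10 under every one. In deposited FPKM the 71 genes had a median CV of 0.116, with a range of 0.0621 to 0.165. MELO3C005733.2, the steadiest after scaling, had 0.112 there.

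Ratios between genes of one library need no scaling. The SD over 12 libraries of the log2 ratio of a pair of the 71 genes had a median of 0.169 (range 0.0701 to 0.269, 2485 pairs). For pairs of the 63 genes chosen on deposited FPKM the median was 0.168, and for pairs of genes of the window it was 0.755. The CV limit, the same for both lists, holds the medians within a list close together. Across the lists, the 51 genes found only after median-ratio scaling paired with the 43 found only in deposited FPKM gave a median of 0.225 (up to 0.341), wider than within either list. Each of these genes met the rule under its own scaling and failed it under the other. A wider value is therefore favoured by how the lists were cut, and nothing is read from it. The tightest pair of the 71 was MELO3C011449.2 with MELO3C022537.2, named after their values were seen, whose ratio was 2.18 ± 0.107 (SD, n = 12) and ran from 1.97 to 2.43.

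The 10 genes steady under every scaling, also named after their values were seen, had a median pair SD of 0.117. They were MELO3C007998.2, MELO3C007764.2, MELO3C006320.2, MELO3C021777.2, MELO3C011765.2, MELO3C007489.2, MELO3C015245.2, MELO3C013873.2, MELO3C013580.2 and MELO3C018586.2. MELO3C021777.2 was the most abundant, with 123 ± 9.06 scaled FPKM and 124 ± 8.7 deposited FPKM (SD, n = 12), which ran from 109.8 to 142. MELO3C011765.2 had the lowest CV in deposited FPKM, 0.0621, with a range of 37.6 to 46.3. MELO3C006320.2 had a CV of 0.0627 after scaling and 0.0764 before. MELO3C007998.2 had 0.0514 and 0.0772, and MELO3C007764.2 had 0.0613 and 0.0834.

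After scaling the 71 genes did not vary as a block. Scaling removes movement shared by most genes of a library, and the rule keeps genes that are flat on that scale. A low median correlation is therefore favoured beforehand, and nothing is read from it. The correlation of log2 scaled levels over the 12 libraries, given as a description of pairs that share libraries and scaling, had a median of 0.01 and ran from -0.88 to 0.85. It was above 0.8 in 5 pairs and below -0.8 in 6. The first principal component of their deviations held 21.5% of the variance, the second 16.6% and the third 14.6%. Replicate 1 of 162 at 0 h had the most extreme score on the first, -0.607, and replicate 3 of 162 at 12 h the highest, 0.399, while the other replicates of its group were at -0.201 and -0.188. The 3 libraries of 13-5A at 12 h scored 0.379, 0.222 and 0.299.

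The spread can be read independently where the libraries that choose the genes differ from those in which they are read. A reading within a variety leaves out differences between varieties, and a reading within a time leaves out differences between times. Chosen in the 6 libraries of 162 alone, with the factor and the rule computed there, 213 genes were steady. In the 6 libraries of 13-5A 39.9% of them had a CV of 0.10 or less, against 9.13% of all 5551 genes of the window. Chosen in 13-5A, 455 genes were steady, and 16.7% of them were so in 162, against 3.8% of the window. Chosen at 0 h in both varieties, 337 were steady, and 40.4% of them were so at 12 h, against 11.2%. Chosen at 12 h, 658 were steady, and 24.2% were so at 0 h, against 6.97%. In each direction the share was higher among the chosen genes than in the window, and in each direction most chosen genes were above the limit in the other libraries. Only 48 of the 213 genes chosen in 162 were also steady over all libraries, and 60 of the 455 chosen in 13-5A. For the lists chosen at 0 h and at 12 h it was 57 of 337 and 55 of 658. Most chosen genes were thus outside the steady set, and the shares describe these lists and not that set. No test was made, since genes are not replicates.

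**Figure D5:**
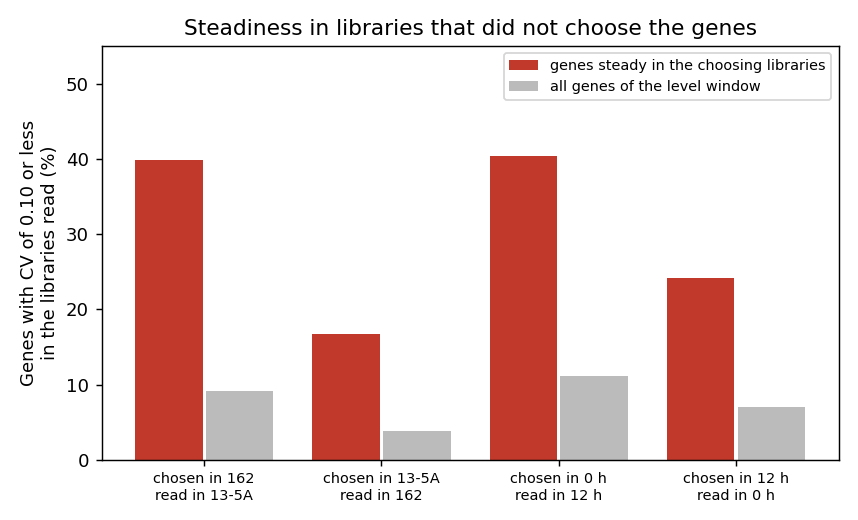
Share of genes with a CV of 0.10 or less in 6 libraries (y axis, percent, from 0) when the genes were chosen in the other 6 (x axis: choosing and reading libraries); red bars are genes steady in the choosing libraries and grey bars all genes of the level window. Red bars stand between 16.7% and 40.4% and grey bars between 3.8% and 11.2%.

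Leaving 1 library out and reading it afterwards gave the same picture on a finer scale. With 11 libraries between 75 and 118 genes met the rule, and each list held 66 to 68 of the 71. In the library left out, the genes chosen in the other 11 deviated from their mean by a median of 5.14% to 16.1%, where the window deviated by 20.4% to 32.8%. The largest value, 16.1%, and the largest list, 118 genes, both belonged to replicate 1 of 162 at 0 h. Apart from that library, between 84.6% and 96.2% of the chosen genes were within 20% of their mean in the library left out, and in it 65.3% were. Of the 71 genes 62 met the rule whichever library was left out. The other 9 included MELO3C009890.2, MELO3C026439.2 and MELO3C017711.2, which met it in 4 of the 12 cases each, and MELO3C020961.2, which met it in 5, all near the CV limit.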

How the data were processed

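Messenger RNA of melon leaves was measured in 12 libraries, 3 for each combination of variety (162, 13-5A) and time (0 h, 12 h at 4 °C). Per the labels' protocols, RNA was extracted with TRIzol and libraries made with a VAHTS Universal V6 kit were read as pairs on an Illumina NovaSeq. The authors deposited FPKM for 21691 genes, 1 column per library. The sources used here do not give the aligner, the counter, the build or the annotation. Columns were matched to samples by their descriptions, and 0 other columns of per-sample values were present. No library repeated another: over replicate pairs the chi-square per gene was 35.7 to 247.6, where sampling alone gives about 1.

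Median-ratio factors were computed over 17022 genes above 0 in all libraries. Whole reads and gene lengths were recovered from the FPKM steps; all values of 16635 genes came out whole within 0.01 reads, and 1 FPKM was about 71.2 reads at the median length. Whether a read is a pair was not resolved.

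limma 3.58.1 (R 4.3.3, intensity trend, 8 residual degrees of freedom, Benjamini-Hochberg adjustment) was fitted to log2(scaled FPKM + 1) of 15572 genes with a mean of 1 or more, in all 12 libraries. The rule, the recovery of reads and lengths, and limma were tested on simulated data. For 12 h against 0 h in 162, limma called 22 of 100 genes simulated with a 1.5-fold change and 100 of 100 with a 3-fold change. Of 15329 genes simulated without change it called 2. P-values measure the spread between these libraries, which may be technical. Other steps used Python 3.11.15.

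The members, the rule and the lists were chosen with earlier results of these data known. Named genes are the lowest in CV per level band, the most abundant, those with the largest time, variety and interaction differences, the farthest single libraries, the longest and shortest, and those next to the limits; others are said to be chosen after their values were seen. Lists of reference genes and leaf markers matched 0 identifiers and were not tested.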

Additional observations from a re-analysis of the deposited data

How the results depend on the processing

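The number of steady genes, 71, was 63 in deposited FPKM, 61 as TPM, 86 with upper-quartile and 87 with a median-ratio factor over genes of 20 or more, but the genes differed, as given above. It became 27 and 175 with CV limits of 0.08 and 0.12, 113 and 24 with minimum means of 10 and 50, and 932 with a pooled within-group CV, which 64 of the 71 met. Chosen in 6 libraries it was 213 (162), 455 (13-5A), 337 (0 h) and 658 (12 h). Leaving out each library gave 75 to 118, and 118 came without replicate 1 of 162 at 0 h. Wider limits admit more genes by construction. Choosing within a variety or a time also leaves out differences between varieties or between times. For fewer libraries and for the scalings the cause was not tested.

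Steady genes called by limma, 0 in every comparison, became 2, 2 and 1 without a filter on low values (time in 162, time in 13-5A, varieties at 0 h), and 1 with a minimum mean of 5 for time in 162. In deposited FPKM they were 2, 2, 24 and 1 for time in 162, time in 13-5A, and varieties at 0 h and 12 h. Of all genes tested, 41.8% were called for the varieties at 0 h in deposited FPKM. For the other alternative settings the share of all genes was not counted, so nothing is read from those counts. Leaving out each library gave 0 to 1 for time in 162, the 1 without replicate 2 of 162 at 0 h, and 0 to 0 elsewhere. A pseudocount of 0.1, no trend and limma voom gave 0 throughout. The labels do not say whether equal replicate numbers pair libraries. In 18 same-numbered pairs, deviations from the group means correlated at -0.314 to 0.309, with 2 above 0.1. The highest value was that of replicate 1 of 162 at 0 h and at 12 h. Differently numbered pairs were not compared, so these values do not decide on pairing. With a replicate block limma gave 0 calls in each comparison. Of 20 named steady genes, the CV stayed within 0.10 in 33 of 80 values under other scalings and in 211 of 240 with a library left out.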
